A study of Mus musculus with 4 samples.

Results

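The insulin-like growth factor axis was followed through 10 genes in lungs of Fgf8 hypomorph and wild type mouse fetuses. They are the ligands Igf1 and Igf2, the receptors Igf1r and Igf2r, and the binding proteins Igfbp2 to Igfbp7. All spots that carried one of these names and were not array controls were kept. That gave 38 spots on each array for 20 probes, out of 43379 spots for 41174 probes. The genes were chosen with their ratios in this comparison known, so their values are given as a description, without p-values.

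IGF1 and IGF2 are small secreted proteins that act on cells through the receptor tyrosine kinase encoded by Igf1r. The receptor encoded by Igf2r binds IGF2 and carries it to lysosomes, without signalling as a kinase. The binding proteins hold the ligands in tissue fluid and blood, prolong their stay and limit or deliver their access to the receptor, and several also act on cells without a ligand. In the fetus this system is a main driver of growth, Igf2 is expressed from the paternal copy and Igf2r from the maternal copy, and mouse pups that lack Igf1r die at birth with underdeveloped lungs.

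Lungs were taken at E18.5, shortly before birth, from hypomorph fetuses with the genotype Fgf8H/- and from Fgf8+/+ wild type littermates. That genotype is the one in the extraction protocol. The sample titles write AP/N for the hypomorph, letters that the labels do not explain. Both genotypes were on a mixed background that the labels write c57nl7/sv129. Lobes were freed of large airways and vessels, and RNA of 3 lungs of a genotype was pooled for each sample, so no value belongs to a single fetus. Each of 4 two-colour arrays carried a hypomorph pool in Cy5 and a wild type pool in Cy3, which gives n = 4 pools per genotype. With Cy5 on the hypomorph side of every array, dye and genotype cannot be told apart at a single probe. Ratios are log2 of hypomorph over wild type, given as mean ± SD over 4 arrays unless another n is stated, and signals are normalized log2 intensities of each channel. Signals of different probes are not comparable, so the genes are not ranked by level.

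Between 32731 and 34519 spots per array were well above background in the hypomorph channel, and between 32491 and 33744 in the wild type channel. Fgf8, the gene altered in the hypomorph, had a ratio of -0.18 ± 0.11, with single arrays at -0.31, -0.23, -0.09 and -0.09, and it did not pass the threshold (limma, adjusted p = 0.0549 over all genes). Whether its probe reads the changed stretch of the allele was not analysed here, so it is a limited check of the labels. Of 10 lung epithelium markers on the array, 7 could be tested, Nkx2-1 among them. These 7 were well above background in both genotypes on 4 of 4 arrays. Testing already required such a signal in a channel on at least 3 arrays, so this is a weak check of the tissue. Over 20611 genes tested, the median ratio was -0.00 with an SD of 0.23 across genes.

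Promoters are shown for 5 genes. Igfbp3 is the member farthest from 0, Igfbp1 is its neighbour and Igfbp4 is a binding protein on the other side of 0. Igfbp2 and Igfbp5 are a neighbouring pair. The promoter sequences were not related to any ratio. Each is the 250 bases before the annotated start, from RefSeq on build GRCm38.p6, 5′ to 3′ on the gene's strand. Capitals mark matches, on either strand, to any of 6 searched motifs: the TATA-box forms TATAAA and, in a variant, TATATA, the GC box GGGCGG, the hypoxia-response core ACGTG, the ETS motif CCGGAAG and the forkhead motif GTAAACA. Overlapping matches were all kept.
Igfbp3 promoter (chr11:7213924-7214173, minus strand): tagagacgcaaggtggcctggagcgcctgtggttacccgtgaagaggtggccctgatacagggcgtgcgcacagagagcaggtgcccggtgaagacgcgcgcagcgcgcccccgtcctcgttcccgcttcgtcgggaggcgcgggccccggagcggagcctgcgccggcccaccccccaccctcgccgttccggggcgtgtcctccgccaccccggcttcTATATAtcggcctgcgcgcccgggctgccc
Igfbp1 promoter (chr11:7197537-7197786, plus strand): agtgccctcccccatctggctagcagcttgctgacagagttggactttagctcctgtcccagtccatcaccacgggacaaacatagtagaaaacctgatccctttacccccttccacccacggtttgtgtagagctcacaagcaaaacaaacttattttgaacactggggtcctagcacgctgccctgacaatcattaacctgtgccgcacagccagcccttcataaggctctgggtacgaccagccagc
Igfbp4 promoter (chr11:99040994-99041243, plus strand): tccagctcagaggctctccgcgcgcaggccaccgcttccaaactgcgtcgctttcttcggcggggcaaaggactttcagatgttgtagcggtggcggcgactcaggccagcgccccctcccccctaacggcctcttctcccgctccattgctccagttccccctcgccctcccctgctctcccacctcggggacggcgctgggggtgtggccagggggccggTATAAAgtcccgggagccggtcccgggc
Igfbp2 promoter (chr1:72824230-72824479, plus strand): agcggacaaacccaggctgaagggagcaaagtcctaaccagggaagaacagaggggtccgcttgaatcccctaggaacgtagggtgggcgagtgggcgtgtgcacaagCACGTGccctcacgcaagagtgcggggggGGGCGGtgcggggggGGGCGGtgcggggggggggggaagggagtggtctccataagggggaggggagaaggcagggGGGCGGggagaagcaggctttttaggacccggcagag
Igfbp5 promoter (chr1:72874866-72875115, minus strand): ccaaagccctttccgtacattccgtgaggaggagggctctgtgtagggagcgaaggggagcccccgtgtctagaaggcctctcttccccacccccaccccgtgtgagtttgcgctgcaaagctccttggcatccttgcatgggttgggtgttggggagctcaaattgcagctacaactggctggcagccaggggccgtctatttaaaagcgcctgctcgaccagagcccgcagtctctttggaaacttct
These bases held 1 TATATA in Igfbp3, 30 to 25 bases before the start, and 1 TATAAA in Igfbp4, 28 to 23 bases before it. The Igfbp2 window shown held 3 GGGCGG matches and an ACGTG match on each strand, which overlap. The table has a second Igfbp2 promoter, chr1:72825137-72825386, with 56.4% G and C and no match, which is not shown. None of these exact strings was found in the windows of Igfbp1 and Igfbp5. Other forms of the same motifs were not searched, so the lack of a match does not show that a site is absent. Of 32851 promoters in the table, 5.25% held TATATA, 12.4% TATAAA, 32.7% GGGCGG, 16.6% ACGTG, 6.91% CCGGAAG and 3.17% GTAAACA. The Igfbp3 window had 73.2% G and C and 32 CG pairs, against 53.2% and 5 for Igfbp1, and the median promoter had 52.4% G and C. A match describes letters only.

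Igfbp3, which encodes a main carrier of IGFs in the circulation, was about 3-fold lower in hypomorph lungs. Its signal was 10.56, 10.32, 10.68 and 10.93 in the hypomorph pools, against 12.00, 11.95, 12.34 and 12.58 in the wild type pools. All hypomorph pools lay below all wild type pools. The ratios were -1.44, -1.63, -1.66 and -1.64, with a mean of -1.59 ± 0.10, which is 3.02-fold lower, and 4 genes of 20611 had a lower mean ratio. In whole tissue, fewer cells that express a gene and less RNA per cell cannot be told apart, here and for the genes below.

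The Igfbp3 value comes from the brightest of 3 probes, at chromosome 11, 7106594 to 7106653 on the minus strand in build mm8, the build of all probe positions here. A second probe, at 7111815 to 7111874, had ratios of -2.04, -2.07, -1.75 and -1.73, with a mean of -1.90 ± 0.19, and was well above background on 3 of 4 arrays in the hypomorph channel and 4 of 4 in the wild type channel. The other probe, which the files map across 7108469 to 7109478, was dim in hypomorph lungs, where it was well above background on 2 of 4 arrays, and read -0.37 and -0.71 on its 2 usable arrays. With the scanner software's processed signals, the second probe read -3.29 ± 0.06, so the size of the difference at this probe depends on the background correction. All 3 probes read below 0.

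**Figure D1:**
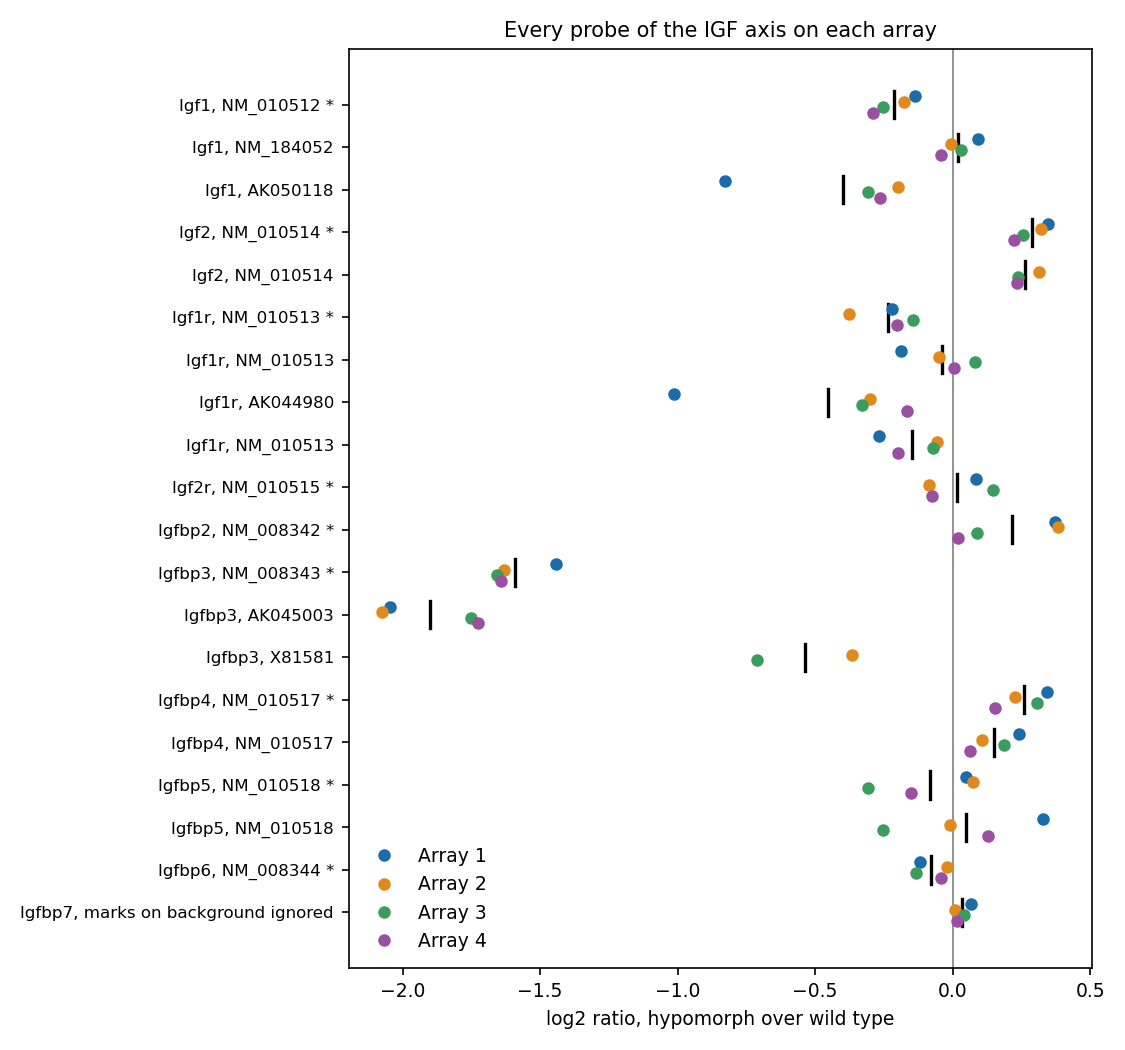
Log2 ratio of hypomorph over wild type for each probe of the 10 genes, with a point per array and a bar at the mean. Asterisks mark the probe used for the gene, and the 3 Igfbp3 probes sit left of 0, the brightest at -1.59.

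Igf2, the fetal ligand, was modestly higher in hypomorph lungs. Its signal was 16.58, 16.44, 16.62 and 16.51 in the hypomorph pools, against 16.23, 16.12, 16.36 and 16.29 in the wild type pools. The groups did not overlap, and the ratios of 0.35, 0.32, 0.26 and 0.22 gave a mean of 0.29 ± 0.06, or 1.22-fold. This probe, at chromosome 7, 142460185 to 142460245, lies in the brightest range of the array, where the median ratio of 162 genes with a mean log2 signal above 16 was 0.27. In 5 dimmer ranges the medians lay between -0.06 and 0.01. At this probe the ratio shrank to 0.06 with the processed signals and to 0.05 with a loess span of 0.1, settings under which it did not pass and the median of the brightest range was 0.02 in both.

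A second Igf2 probe, at 142460600 to 142460659, lies outside that range. Its signal was 14.75, 14.88 and 14.68 in the hypomorph pools of replicates 2 to 4, against 14.44, 14.65 and 14.45 in their wild type partners. The ratio was 0.26 ± 0.05 (n = 3), and it was 0.28 ± 0.06 with the processed signals and 0.29 ± 0.05 with a loess span of 0.1. The median of all genes with a mean log2 signal between 14 and 16 was -0.06, -0.06 and -0.05 under these 3 settings. The second Igf2 probe was thus higher by about the same amount under each of them.

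**Figure D2:**
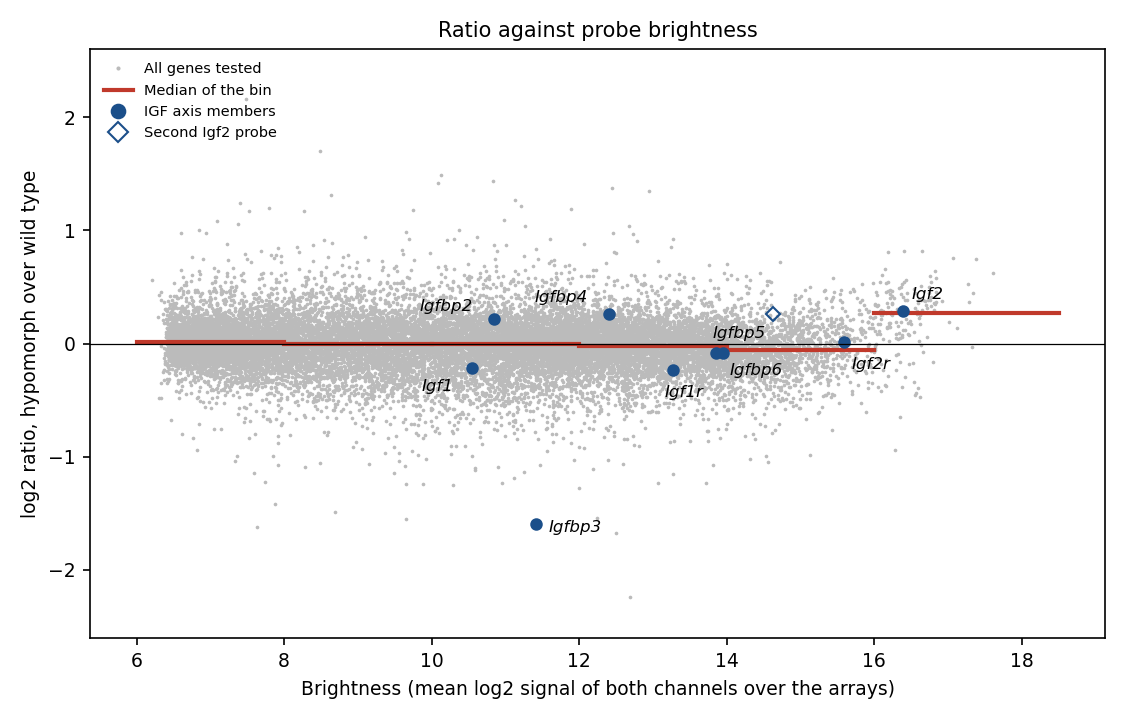
Mean log2 ratio against brightness for the genes tested, with the 9 tested members named, the second Igf2 probe as a diamond and the median of each brightness range as a bar. Igf2 sits on the raised median of the brightest range, 0.27, whereas its second probe lies above its own.

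Igf1, the other ligand, was slightly lower at its tested probe. The signal was 10.55, 10.29, 10.56 and 10.33 in the hypomorph pools, against 10.68, 10.47, 10.81 and 10.62 in the wild type pools. These ranges overlapped, although each hypomorph pool lay below the wild type pool on its own array. The mean ratio was -0.21 ± 0.07, from -0.14, -0.18, -0.25 and -0.29. It was -0.03 with median centring and -0.20 with the processed signals, and passed in neither.

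The Igf1 probes disagreed. The tested probe lies at chromosome 10, 87360570 to 87360629, and a second probe at 87343472 to 87343531 had a ratio of 0.02 ± 0.06. Their mean log2 signals were 10.54 and 10.53, so the choice of the brightest probe was close to a tie. With the mean of all probes Igf1 read -0.20 and passed as lower. The difference between the tested probe and the second was -0.23, -0.17, -0.28 and -0.25 on the 4 arrays, a mean of -0.23 ± 0.05. The remaining probe, at 87292436 to 87292495, read -0.40 ± 0.29, with -0.83 on replicate 1 and -0.20, -0.31 and -0.27 on the others. A direction for Igf1 therefore holds for 2 of its 3 probes. The probes name different transcript records, and which transcripts each detects was not analysed here.

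The tested probes of Igf1 and Igf2 were each printed 10 times on an array, which shows the error within an array. For Igf1 the SD between arrays was 0.07, against a median SD of 0.05 between the spots of an array. For Igf2 these were 0.06 and 0.05. On each array, all unmarked Igf1 spots lay below 0, from -0.38 to -0.05 over the 4 arrays, and all unmarked Igf2 spots lay above 0, from 0.14 to 0.39. The marked Igf1 spots, which were left out, read -0.14 on array 1, -0.23, 0.06 and 0.04 on array 2 and 0.10 on array 3. With marked spots kept, the mean Igf1 ratio was -0.20 and passed.

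**Figure D3:**
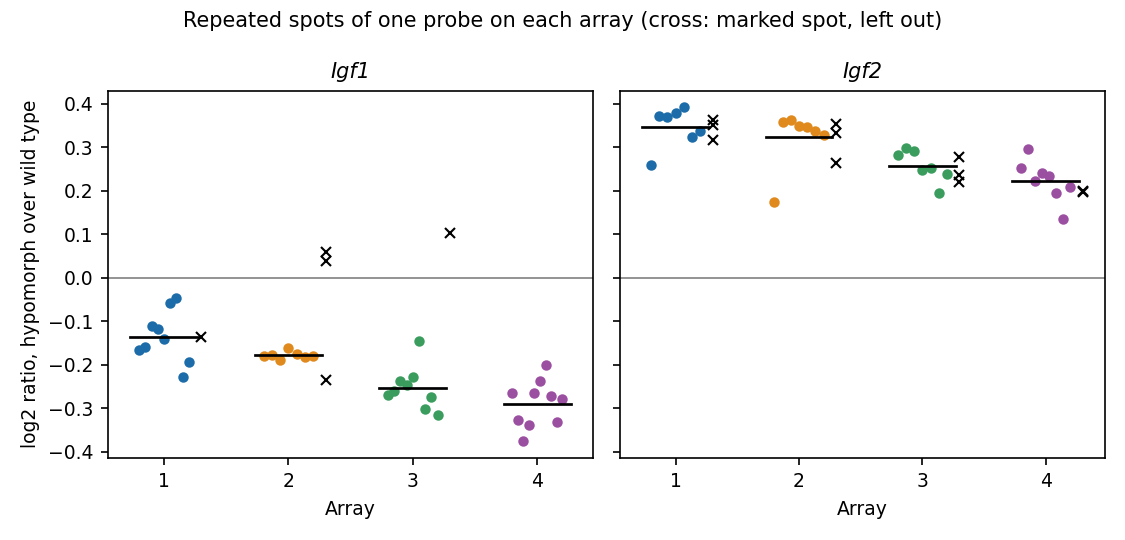
Log2 ratio of the repeated spots of Igf1 (left) and Igf2 (right) on arrays 1 to 4, with bars at the mean of unmarked spots and crosses for spots the scanner software marked. Unmarked Igf1 spots lie between -0.38 and -0.05 and unmarked Igf2 spots between 0.14 and 0.39.

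Igf1r, the receptor that transmits the signal of both ligands, was slightly lower at its tested probe. Signals were 13.09, 13.07, 13.24 and 13.22 in the hypomorph pools, against 13.31, 13.45, 13.39 and 13.42 in the wild type pools. The groups did not overlap, and the mean ratio was -0.24 ± 0.10, or 1.18-fold lower, although median centring in place of loess turned it to 0.07. With median centring, all genes with a mean log2 signal between 12 and 14 had a median of 0.26. The 3 other Igf1r probes, all within chromosome 7, 68061142 to 68101186, had mean ratios of -0.04 ± 0.11, -0.15 ± 0.10 and -0.45 ± 0.38. The last of these read -1.01 on replicate 1 and -0.30, -0.33 and -0.17 on the others. The tested probe lies at 68105625 to 68105684.

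Igf2r, the clearance receptor for IGF2, showed no difference larger than the spread between arrays. Its ratios were 0.08, -0.09, 0.15 and -0.08, with a mean of 0.02 ± 0.12, and the groups overlapped. Its probe lies at chromosome 17, 12525745 to 12525755 as far as the files map it. The mean was -0.12 with the processed signals and 0.63 with median centring, where it passed as higher.

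Igfbp4, an inhibitory binding protein that is cut by the protease PAPP-A, was higher in hypomorph lungs. Its signal was 12.52, 12.29, 12.67 and 12.68 in the hypomorph pools, against 12.17, 12.06, 12.36 and 12.53 in the wild type pools. The ranges overlapped, with each hypomorph pool above its array partner, and the mean ratio was 0.26 ± 0.09, or 1.20-fold. A second probe read 0.24, 0.11, 0.19 and 0.06, a mean of 0.15 ± 0.08. The probes lie at chromosome 11, 98868110 to 98868169 and 98864367 to 98864426.

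Igfbp2, a binding protein abundant in fetal tissues, differed unevenly between arrays. Its signal was 10.91, 10.79, 11.07 and 11.06 in the hypomorph pools, against 10.54, 10.40, 10.98 and 11.04 in the wild type pools. Replicates 1 and 2 read 0.37 and 0.38, whereas replicates 3 and 4 read 0.09 and 0.02, so the mean of 0.22 ± 0.19 is about the size of its spread. With median centring the mean was 0.41 and passed. The lower values were those of the wild type pools of replicates 1 and 2.

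Igfbp5 lies beside Igfbp2, with probes 6.15 kb apart on chromosome 1, at 72785310 to 72785369 on the plus strand for Igfbp2 and at 72791462 to 72791521 on the minus strand for Igfbp5. Igfbp5, a binding protein that also attaches to extracellular matrix, had ratios of 0.05, 0.07, -0.31 and -0.15, with a mean of -0.08 ± 0.18. Its second probe, at 72793999 to 72794058, read 0.05 ± 0.25. In both genes replicates 1 and 2 read higher than replicates 3 and 4 at the tested probe, and the wild type signal of Igfbp5 was 13.70 and 13.67 in replicates 1 and 2 against 14.24 and 13.98 in replicates 3 and 4. The mean of the tested Igfbp5 probe lay within its spread between arrays, although with median centring it read 0.28 ± 0.25 and passed as higher. The median of genes with a mean log2 signal between 12 and 14 was then 0.26.

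Igfbp6, a binding protein that prefers IGF2, had ratios of -0.12, -0.02, -0.13 and -0.04 and a mean of -0.08 ± 0.05. Its hypomorph signals ran from 13.83 to 13.97 and its wild type signals from 13.94 to 14.04, and the ranges overlapped. The sign turned with median centring, where the mean was 0.30 and passed as higher. The median of genes with a mean log2 signal between 12 and 14 was then 0.26. The probe lies at chromosome 15, 101977366 to 101977426.

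Igfbp7, a relative that binds IGFs weakly and is abundant in vessel walls, could not be tested, because the scanner software marked the background around its only spot on 3 of 4 arrays. On the unmarked array it read 0.07, but -0.19 with the processed signals, -0.11 with a loess span of 0.1 and 1.00 with median centring. With marks on the background ignored, a choice made after seeing the data, its ratios were 0.07, 0.01, 0.04 and 0.02, a mean of 0.03 ± 0.03. Its signal was then 16.25, 16.09, 16.23 and 16.29 in the hypomorph pools and 16.19, 16.08, 16.18 and 16.28 in the wild type pools, and the groups overlapped. The probe lies at chromosome 5, 78424105 to 78424164, in the brightest range. The median ratio there was 0.34 with background marks ignored, above the ratio of Igfbp7. The Igfbp7 ratio thus shares the limit given for Igf2, and whether the gene differs cannot be told from it.

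**Figure D4:**
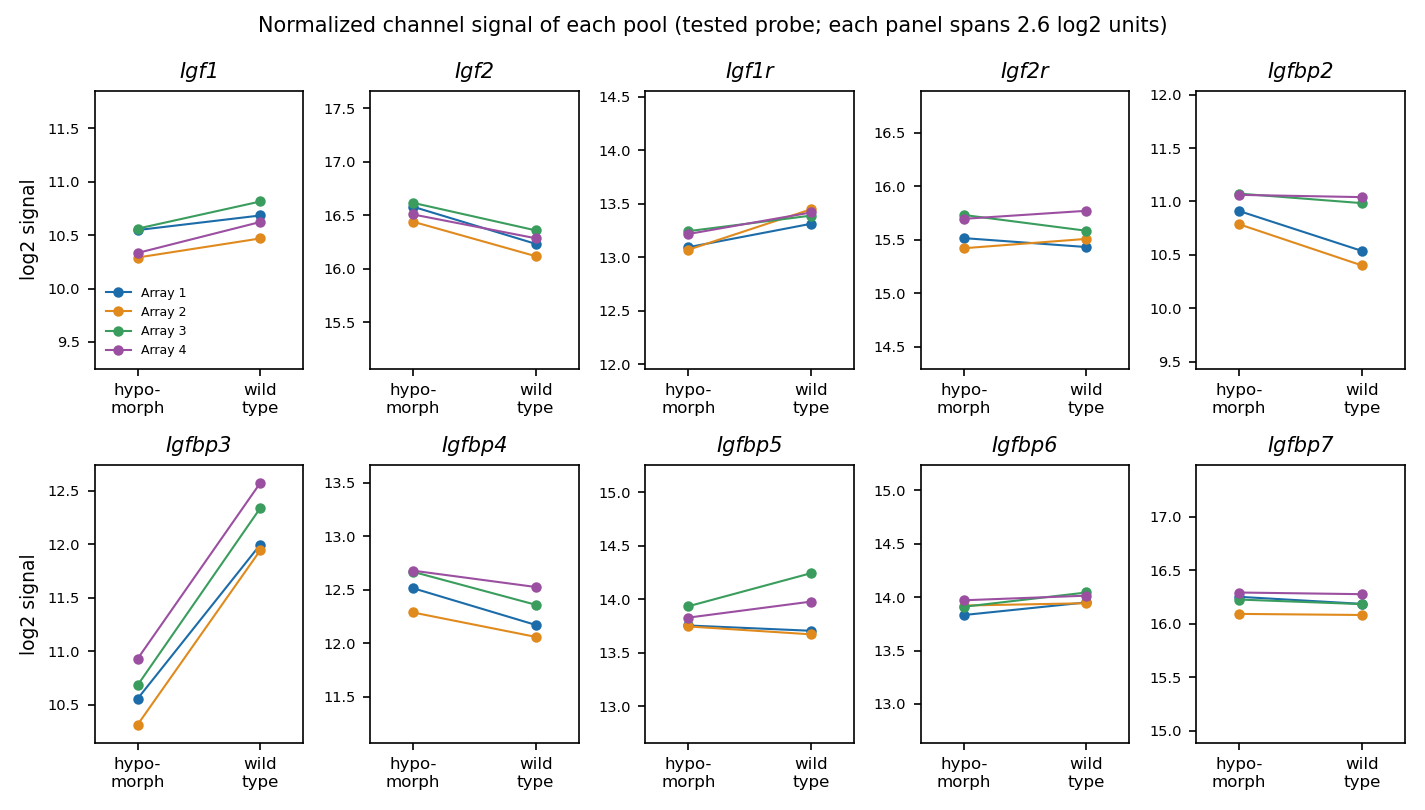
Normalized log2 signal of each pool at the tested probe of each member, hypomorph left and wild type right, with lines joining the pools of an array. Every panel spans the same number of log2 units, and Igfbp3 has the steepest lines, with hypomorph signals of 10.32 to 10.93.

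Of the 9 members that could be tested, 2 were higher (Igf2 and Igfbp4), 3 were lower (Igfbp3, Igf1 and Igf1r) and 4 did not pass limma's threshold of 0.05 after Benjamini-Hochberg adjustment. With median centring 7 passed, 6 higher (Igf2, Igf2r, Igfbp2, Igfbp4, Igfbp5 and Igfbp6) and 1 lower (Igfbp3). In that setting the median of all genes rose with brightness. It was 0.20, 0.26 and 0.42 at mean log2 signals of 10 to 12, 12 to 14 and 14 to 16. Over all genes, 27.2% passed, 14.0% higher and 13.2% lower. The channel groups did not overlap for 3 members, Igf2, Igf1r and Igfbp3, and for 17.4% of all genes. Nothing is read from these member counts, because the genes were chosen on this comparison. The median ratio of the 9 was -0.08. Leaving out replicate 2 left 1 member, Igfbp3, past the threshold, leaving out replicate 3 left Igfbp3 and Igf2, and leaving out replicate 4 left Igfbp3, Igf2 and Igfbp4. Over all genes the same exclusions gave 1394, 2057 and 3627 calls, against 5608 with all arrays. Igfbp3 alone among the members passed in all 17 alternatives and in the main setting. These are not 17 separate checks. The changes of filter, marks and variance model left its ratio at -1.59, and the series table repeats the processed signals.

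Of the 6 members with at least 2 usable probes, 4 had all of them on one side of 0, namely Igf2, Igf1r, Igfbp3 and Igfbp4. Igf1 and Igfbp5 did not.

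Other genes of the system were examined as 8 lists, each described by its counts and median. Their values come from the limma test over all 20611 genes, of which 27.2% passed. The lists were chosen with earlier results of these data known, so their counts and p-values are a description and give no independent support. The lists share some genes with each other, and the imprinted list holds 2 members. The normalization bears on all of these counts, since median centring in place of loess moved the median of all genes to 0.13 and the split of calls to 8335 higher and 2443 lower, against 2880 and 2728. Without loess the ratios also followed brightness, from a median of -0.12 in the dimmest range to 0.99 in the brightest.

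**Figure D5:**
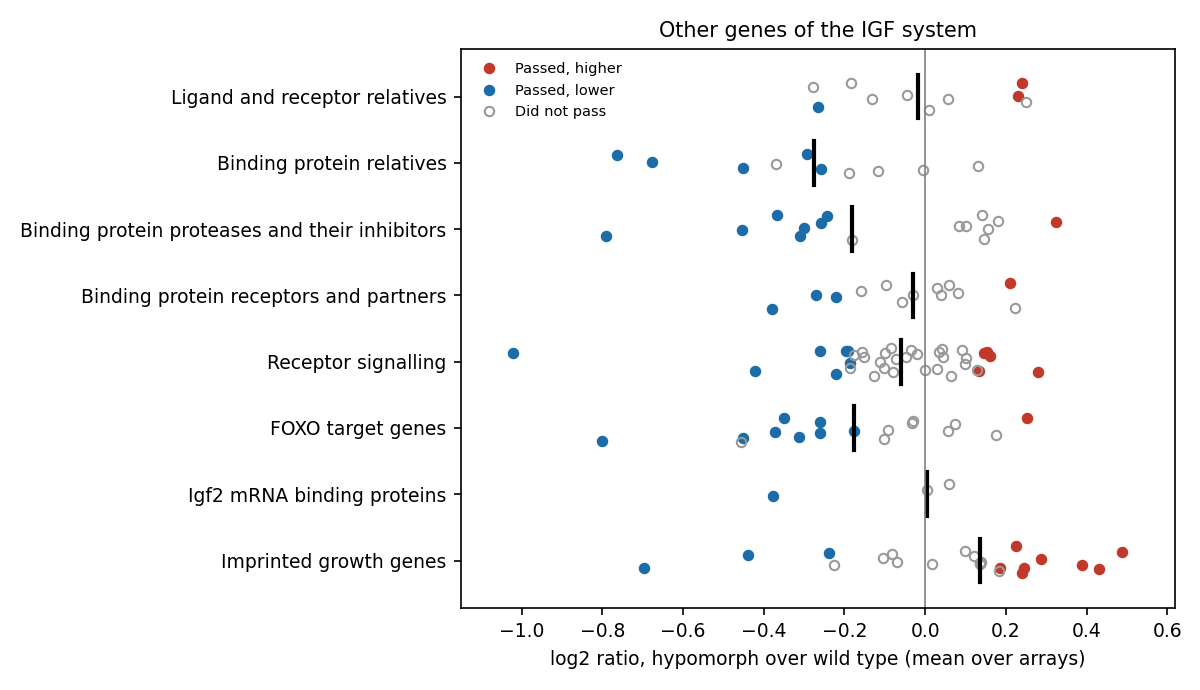
Mean log2 ratio of each measured gene in 8 lists of the IGF system, with bars at the list medians. Filled points passed limma's threshold (red higher, blue lower), and the binding protein relatives lie furthest to the left, with a median of -0.28.

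Relatives of the binding proteins, most of which share their amino-terminal domain, with the acid-labile subunit gene Igfals added, fell in 5 of 10 measured cases and rose in none (median -0.28), although median centring gave 1 higher and 2 lower. Ccn2, the matricellular protein also called CTGF, had signals of 15.03, 15.08, 15.03 and 15.03 in the hypomorph pools, against 15.87, 15.89, 15.77 and 15.69 in the wild type pools. It fell by 0.76 ± 0.08 on the log2 scale (limma, adjusted p = 0.00131), with no overlap between the genotypes, and the value was -0.18 and did not pass with median centring. Esm1, an endothelial proteoglycan core protein, had a ratio of -0.68 ± 0.23 (limma, adjusted p = 0.00662), and Ccn1, a second matricellular protein, one of -0.29 ± 0.06 (limma, adjusted p = 0.00833), which was -0.05 and did not pass with median centring. Without replicate 2, 3 of the 10 passed, and Ccn1 was not among them.

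Igfbp1 belongs to this list and is also the nearest measured neighbour of Igfbp3, with probes 4.15 kb apart. It encodes a binding protein known mainly from liver. Its signal was 8.47, 8.63 and 8.56 in the hypomorph pools of replicates 1, 2 and 4, against 8.99, 9.03 and 8.99 in the wild type pools. The groups did not overlap, and the ratio was -0.45 ± 0.06 (n = 3; limma, adjusted p = 0.00694), between -0.53 and -0.37 over the alternatives, all of which it passed. Adcy1, an adenylyl cyclase gene 28.9 kb from an Igfbp3 probe, had a ratio of 0.03 ± 0.20 and did not pass (limma, adjusted p = 0.81).

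Proteases that cut the binding proteins, and inhibitors of those proteases, fell in 7 and rose in 1 of 15 measured cases (median -0.18), although median centring gave 4 higher and 3 lower. Plat, tissue plasminogen activator, had signals of 10.83, 10.50, 10.74 and 10.80 in the hypomorph pools, against 11.51, 11.36, 11.49 and 11.68 in the wild type pools. It fell by 0.79 ± 0.09 (limma, adjusted p = 0.00133), and its 2 other probes read -0.38 and -0.34. Pappa, which encodes PAPP-A, the protease that cuts Igfbp4 and frees its ligand, fell by 0.45 ± 0.10 (limma, adjusted p = 0.00448), with the same -0.45 at a second probe. Both genotypes were apart for Pappa, with 9.20, 8.98, 9.27 and 9.21 in the hypomorph pools and 9.54, 9.37, 9.79 and 9.78 in the wild type pools.

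Adam9, a membrane metalloprotease, read -0.37 ± 0.09 (limma, adjusted p = 0.00677), a direction that turned to 0.01 with median centring. Adam12, a metalloprotease that cuts IGFBP3 and IGFBP5, rose by 0.33 ± 0.07 (limma, adjusted p = 0.00698), from signals of 8.39, 8.26, 8.30 and 8.27 in the hypomorph pools and 7.99, 7.88, 8.05 and 7.99 in the wild type pools, which did not overlap. The PAPP-A inhibitors Stc1 (-0.24 ± 0.05, adjusted p = 0.0117 by limma) and Stc2 (-0.31 ± 0.13, adjusted p = 0.0164 by limma), chosen after their values were seen, were also lower. Neither passed without replicate 2 or 3, Stc1 was -0.08 and did not pass with median centring, and Stc2 did not pass without replicate 4. Without replicate 2, 3 of the 15 passed, without replicate 3, 4 passed, and Adam12 did not pass without replicate 2.

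Receptors and partners that binding proteins use apart from the ligands changed in 4 of 13 measured cases, 1 higher and 3 lower (median -0.03), whereas median centring gave 8 higher and 0 lower and the mean of all probes gave 2 in all. Tmem219, reported as a cell-death receptor for IGFBP3, read -0.38 ± 0.10 (limma, adjusted p = 0.00658) with signals of 12.33, 12.61, 12.41 and 12.37 in the hypomorph pools, against 12.83, 12.87, 12.78 and 12.77 in the wild type pools. With median centring it read -0.12 and did not pass, and a second Tmem219 probe read 0.03 ± 0.04. Lrp1, an endocytic receptor that binds IGFBP3, read -0.27 ± 0.02 (limma, adjusted p = 0.00699) and 0.00 with median centring. The TGF-beta receptors Tgfbr1 and Tgfbr2 read 0.21 ± 0.07 and -0.22 ± 0.13 (limma, adjusted p = 0.0213 and 0.0423), and Tgfbr2 turned to 0.32 with median centring. Tgfbr1 was 0.08 with the mean of all probes, and neither passed then or without replicate 2 or 3. Tgfbr2 also lost its call without replicate 4, with the processed signals, the series table and plain background subtraction. Without replicate 2, 1 of the 13 passed, and without replicate 3, 2 passed.

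Relatives of the ligands and receptors changed in 3 of 10 measured cases, 2 higher and 1 lower (median -0.02). The list also holds H19, which is a neighbour of Igf2 and not a relative, and which is counted among the higher genes. Ins2, an insulin gene 27.5 kb from the Igf2 probes, had signals of 7.41, 7.48, 7.53 and 7.59 in the hypomorph pools, against 7.14, 7.23, 7.37 and 7.35 in the wild type pools, and rose by 0.23 ± 0.05 (limma, adjusted p = 0.0138). H19, the imprinted noncoding RNA 74.9 kb from them, had 14.59, 14.23, 14.52 and 14.41 in the hypomorph pools, against 14.23, 13.90, 14.32 and 14.35 in the wild type pools, and rose by 0.24 ± 0.14 (limma, adjusted p = 0.0376), with the same 0.24 at a second probe. Both Ins2 and H19 read above 0 on 4 of 4 arrays, but H19 lost its call with the processed signals, the series table, plain background subtraction and without any one of replicates 1 to 3. Ins2 lost its call with median centring, at 0.16, and without replicate 2. Rln1, a relaxin gene well above background in the hypomorph channel on 1 of 4 arrays, read -0.27 ± 0.11 (limma, adjusted p = 0.0189). Its ratio was -1.16 with the processed signals, it was not tested under the stricter filter on dim probes, and it lost its call without replicate 2 or 3. Without replicate 2, 0 of the 10 passed, and without replicate 3, 1 passed.

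Signalling genes downstream of the receptor changed in 12 of 36 measured cases, 5 higher and 7 lower (median -0.06), whereas median centring gave 20 higher and 3 lower. Socs2, which encodes a feedback inhibitor of growth hormone and IGF signalling, had the lowest ratio of the 36. Its signals were 13.76, 13.82 and 13.78 in the hypomorph pools of replicates 1 to 3, against 14.75, 14.90 and 14.77 in the wild type pools. It fell by 1.02 ± 0.05 (n = 3; limma, adjusted p = 0.00148), which is 2.03-fold lower, and a second probe read -1.06 ± 0.09.

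Socs3, a related cytokine feedback inhibitor, read -0.42 ± 0.05 (limma, adjusted p = 0.00303), and -0.08 without passing under median centring. Of the genes for regulatory subunits of PI3-kinase, Pik3r1 read -0.22 ± 0.06 and Pik3r3 0.28 ± 0.12 (limma, adjusted p = 0.0176 and 0.0186), and Pik3r2 read -0.03 ± 0.08 and did not pass (limma, adjusted p = 0.602). With median centring Pik3r1 turned to 0.07 and Pik3r2 to 0.21. The other 3 Pik3r1 probes read -0.73, -0.32 and -0.39. With the processed signals 5 signalling genes passed, as they did with plain background subtraction, and 7 passed with the mean of all probes. Leaving out replicate 2 left 2, replicate 3 left 2 and replicate 4 left 4, and in none of these did Pik3r1 or Pik3r3 pass.

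Target genes of the FOXO factors, which AKT keeps out of the nucleus when the receptor is active, fell in 8 and rose in 1 of 17 measured cases (median -0.18), although median centring gave 6 higher and 3 lower. Pdk4, a kinase that restrains glucose oxidation, had signals of 11.25, 11.08, 11.29 and 11.52 in the hypomorph pools, against 11.91, 11.90, 12.18 and 12.34 in the wild type pools. It fell by 0.80 ± 0.10 (limma, adjusted p = 0.00134), without overlap. Fbxo32, a ubiquitin ligase subunit, read -0.35 ± 0.08 (limma, adjusted p = 0.00656). Sesn1, a stress-response gene, read -0.37 ± 0.05 (n = 3; limma, adjusted p = 0.00979), but its other probes read -0.09 and -0.04 and the value was 0.01 with median centring. Igfbp1 is also counted here. Without replicate 2, 4 of the 17 passed, and without replicate 3, 5 passed.

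Of the 3 genes for Igf2 mRNA binding proteins, which hold Igf2 and other transcripts in the cytoplasm, 1 passed. Igf2bp2 had signals of 11.19, 11.24, 11.19 and 11.33 in the hypomorph pools, against 11.50, 11.57, 11.69 and 11.70 in the wild type pools, and fell by 0.38 ± 0.09 (limma, adjusted p = 0.00594). Igf2bp1 read 0.00 ± 0.06 and Igf2bp3 0.06 ± 0.11, and neither passed. With median centring Igf2bp2 read -0.16 and did not pass, and the 2 genes that did pass were higher.

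Imprinted genes with roles in growth, Igf2 and Igf2r among them, rose in 8 and fell in 3 of 22 measured cases (median 0.14), and median centring gave 14 higher and 2 lower. Nnat, a paternally expressed membrane proteolipid gene, had signals of 13.44, 13.36, 13.40 and 13.24 in the hypomorph pools, against 13.00, 12.81, 12.82 and 12.84 in the wild type pools. It rose by 0.49 ± 0.09 (limma, adjusted p = 0.00314), without overlap. Magel2, also paternally expressed, rose by 0.39 ± 0.12 (limma, adjusted p = 0.00807). Meg3, a maternally expressed noncoding RNA, read -0.70 ± 0.25 (limma, adjusted p = 0.00706), but -0.29 without passing when marked spots were kept, since a brighter probe was then used. The count was 6 with the processed signals, 2 without replicate 2 and 5 without replicate 3, and Magel2 did not pass without replicate 2.

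Within 250 kb of the members' probes, 67 other genes were measured, of which 12 were higher and 7 lower, a share of 28.4% against 27.2% over all genes. Around Igf2, 3 of 7 were higher and none was lower, namely Ins2, H19 and Lsp1 (0.23 ± 0.01; limma, adjusted p = 0.0111), which encodes an actin-binding protein of leukocytes and lost its call without replicate 2 or 3. Around Igfbp4, the cell-cycle genes Top2a and Cdc6 rose by 0.60 ± 0.13 and 0.77 ± 0.11 (limma, adjusted p = 0.00313 and 0.00153). Around Igf2r, the imprinted antisense RNA Air and the transporter gene Slc22a2 read -0.25 ± 0.47 and -0.14 ± 0.11 and did not pass, although Slc22a2 passed at -0.28 with median centring. Of 8 measured neighbours of Igf2r, 1 passed, Acat3 at 0.15 ± 0.02 (limma, adjusted p = 0.0354), and it lost its call in 4 alternatives, those without replicates 2, 3 and 4 among them. Beside Igfbp2 and Igfbp5, the chromatin remodeller Smarcal1 read -0.15 ± 0.04 (limma, adjusted p = 0.0379), a value that turned to 0.11 with median centring and missed the threshold in 7 other alternatives.

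Genes with ratios near those of Igfbp3 were sought by root mean square difference over the 4 arrays on the log2 scale. Only genes with values on 4 of 4 arrays were searched, and accession, clone and gene model names were left out. The 5 nearest of the genes searched were Pla1a (0.114), Slc13a4 (0.205), Kcnt1 (0.274), Amigo2 (0.355) and Lhfpl3 (0.357). Their mean ratios were -1.55, -1.54, -1.49, -1.25 and -1.42. Pla1a encodes a phospholipase for phosphatidylserine, Slc13a4 a sulphate transporter, Kcnt1 a potassium channel and Amigo2 a cell adhesion protein. The likeness is measured over 4 arrays that all share the same dye order, and mainly reflects a similar size of difference.

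Markers of cell types in and around the lung were set beside these values, and their part in the results was not tested. Over all genes 14.0% were higher and 13.2% lower. The marker counts were made in the main setting only, so how they depend on the processing is not known. Of 9 mesothelium markers, 7 were lower and 0 higher (median -0.39), with mean signals of 10.56 to 10.88 in the hypomorph pools and 11.09 to 11.20 in the wild type pools. Wt1 read -0.45 ± 0.20 and Msln -0.65 ± 0.25 (limma, adjusted p = 0.0138 and 0.0135), Msln turned to 0.12 with median centring, and Upk3b read 0.00 ± 0.17. Of 11 endothelium markers, 2 were higher and 5 lower, with mean signals of 14.06 to 14.18 in the hypomorph pools and 14.23 to 14.27 in the wild type pools. Of 7 macrophage markers, 0 were higher and 4 lower, with 10.79 to 10.90 in the hypomorph pools and 10.89 to 11.07 in the wild type pools. Igfbp3, Igfbp1, Ccn2 and Plat, named with their values known, were lower, as were the medians of these lists, whereas Igf2 and Igfbp4 were higher. Of 5 fetal liver markers, 0 were higher and 2 lower, with Ahsg at -1.22 ± 0.64 and Alb at 0.01 ± 0.41, and Ahsg did not pass without replicate 2 or 3.

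Of 7 lung epithelium markers 3 were higher and 0 lower, of 11 mesenchyme markers 1 was higher and 1 lower, and of 8 smooth muscle markers 1 was higher and 2 lower. Of 7 cartilage markers 2 were higher and 0 lower, of 7 erythroid markers 0 were higher and 1 lower, and of 12 skeletal and heart muscle markers 2 were higher and 0 lower.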

How the data were processed

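The data are 4 two-colour Agilent arrays, each with a Cy5-labelled hypomorph pool and a Cy3-labelled wild type pool of 3 lungs, read on 1 slide in 1 scan. Per the labels, the 4 replicates are separate pools. The submitters' processing notes name Agilent Feature Extraction 9.5.1. Its deposited mean and background intensities are unnormalized, per the file headers. Its deposited processed intensities, and the log10 ratio made from them, had already been background-subtracted and dye-normalized. The deposited series table holds log2 values equal to log2 of processed red over green (correlation 1, column medians -0.02, -0.00, -0.05 and -0.02), so its direction is hypomorph over wild type.

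Intensities were corrected by normexp with an offset of 50 and normalized within arrays by loess with a span of 0.3 (limma 3.58.1, R 4.3.3). Control spots were dropped, as were spots that the software had marked as outliers, in the spot itself or the area around it. No member spot was saturated, and between 4 and 7 of the 38 were marked on each array. Spots of a probe were averaged. A probe was tested if it was well above background in a channel on at least 3 arrays and had values on at least 3, and the brightest such probe stood for its gene. Names were updated through RefSeq accessions of assembly GRCm38.p6 for 24375 of 41174 probes. For each gene, limma tested whether the mean log2 ratio differed from 0, with p-values adjusted over 20611 genes by Benjamini and Hochberg's method. Channel signals were also scaled between arrays by Aquantile. The number of arrays limits the precision. Promoters of all 10 members and of Igfbp1 were found in the RefSeq table.

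The members, the 8 pathway lists and the 10 marker lists were chosen with earlier results of these data known. The text names all members, up to 4 genes of each pathway list with the smallest p among those called, the 5 genes nearest to Igfbp3 over the 4 ratios, neighbours within 250 kb, and defining markers. The search for the nearest genes left out accession, clone and gene model names and genes without values on 4 of 4 arrays. Individual neighbours, markers and the stanniocalcin genes were picked for naming after their values were seen. There were 17 alternatives, including each replicate left out. Of these, ignoring background marks was added after seeing the data. The steps were tested on simulated data.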

Additional observations from a re-analysis of the deposited data

Results flagged for a closer look

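In 3 of the 60 sets of 4 array ratios examined, a single array stood apart from the others by Dixon's test, in which the gap to the nearest array is divided by the whole range. Chance alone marks about 1 in 20 such sets. For the tested Igfbp3 probe the gap was 0.882 of the range, because replicate 1 read -1.44 and the other arrays lay between -1.66 and -1.63. All 4 values are far below 0, and the mean was -1.64 without replicate 1. For Adam9 the gap was 0.868, with replicate 2 at -0.51 and the others between -0.34 and -0.31, and the mean was -0.32 without it. For Ccn1 the gap was 0.870, with replicate 4 at -0.20 and the others at -0.33 to -0.32, and the mean was -0.33 without it. The dimmer probes of Igf1 and Igf1r that read lowest on replicate 1, at -0.83 and -1.01, stayed under the critical value of 0.829.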

How the results depend on the processing

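Over 17 alternatives the Igfbp3 ratio stayed between -1.75 and -1.38, and those of Igf2, Igf1, Igfbp2 and Igfbp4 kept their sign, at 0.05 to 1.02, -0.24 to -0.03, 0.16 to 0.41 and 0.20 to 0.51. Median centring called 10778 genes in place of 5608. It gave 3 binding protein relatives, 8 receptors and partners, 23 signalling genes and 2 Igf2 mRNA binding proteins, and turned Igf1r to 0.067, Smarcal1 to 0.11, Msln to 0.12, Adam9 to 0.011, Sesn1 to 0.0057, Pik3r1 to 0.069, Pik3r2 to 0.21, Lrp1 to 0.0020 and Tgfbr2 to 0.32. The processed signals and the series table, which hold the same values, gave 3 members, 5 signalling genes and 6 imprinted genes. Plain background subtraction gave 5 signalling genes, and the mean of all probes 2 partners and 7 signalling genes. Without 1 replicate, calls ranged from 1394 to 5899 over all genes, 1 to 5 members, 0 to 4 ligand relatives, 3 to 6 binding protein relatives, 3 to 8 proteases, 1 to 4 partners, 2 to 10 signalling genes, 4 to 10 FOXO targets and 2 to 10 imprinted genes. Igf2 mRNA binding proteins stayed at 1. Upk3b, which did not pass in the main setting, passed at 0.26 with median centring and read -0.017 with the processed signals and the series table, -0.0069 with scaling between arrays, and -0.072 to 0.062 without 1 replicate, Alb -0.13 to 0.13 without 1 replicate, and Adcy1 -0.046 without replicate 1. Of 42 genes outside the members, 11 kept their side of the threshold and their sign in every alternative run. The causes of these shifts were not tested. The test over array ratios is itself paired by array, so no other pairing was fitted. No dye swap was at hand, and dim probes such as the other 2 of Igfbp3 and that of Rln1 have ratios limited by their signal over background.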
